A study of Mus musculus with 12 samples.

Results

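Txnip, Hmox1 and Aldh3a1 are genes of the cellular response to oxidative stress, and they were followed across 12 RNA-seq libraries of GC1 cells, an immortalised mouse spermatogonial line. These 3 genes of the 2281 in the deposited expression table were selected on their measured values in all 12 libraries, so their levels and differences are given as a description, without a test. The table holds expression in FPKM, a measure that divides fragments by transcript length and by the total of mapped fragments, and so corrects for transcript length and library size. It is itself a selection, since the authors marked all 2281 genes as significant. The columns of that call name no comparison, while the name of the deposited table lists the wild-type line, the knockout line and both overexpression groups.

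Each of 4 groups held 3 libraries, and all 12 carry the time label 24 h. The groups were Ythdf2 knockout cells that overexpress Setdb1, Ythdf2 knockout cells with the overexpression control, unmodified Ythdf2 knockout cells and wild-type cells. The 3 knockout groups share 1 line code, and the labels name no other knockout line, so an effect of Ythdf2 loss cannot be told apart from other differences between that line and wild-type GC1 cells. YTHDF2 is a reader protein that binds N6-methyladenosine in mRNA and promotes mRNA decay, and SETDB1 is a methyltransferase for lysine 9 of histone H3. The labels do not describe the vectors, the dose or the selection of either overexpression group.

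Txnip encodes thioredoxin-interacting protein, an alpha-arrestin that binds and inhibits thioredoxin and lowers glucose uptake. Its gene is a known target of the glucose-sensing factor MondoA and its partner MLX, which bind paired E-boxes (carbohydrate response elements) in the promoter. Hmox1 encodes haem oxygenase-1, which breaks haem down to biliverdin, carbon monoxide and iron, and it is a classic target of the oxidant-responsive factor NRF2 that BACH1 represses. Aldh3a1 encodes an aldehyde dehydrogenase that oxidises aldehydes formed by lipid peroxidation, and both the aryl hydrocarbon receptor and NRF2 are known to induce it. The authors' table assigns Hmox1 and Aldh3a1 to oxidation-reduction, and it assigns Txnip to the cell cycle and cell proliferation.

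Of the 3 genes, Txnip matched the RefSeq promoter table. Its window of 300 bases on GRCm38.p6, chr3:96557707-96558006 on the plus strand, runs from 250 bases before the transcription start to 50 bases from it. It is printed because the element through which Txnip is known to respond to MondoA and MLX lies in it; capitals mark the E-boxes of the pair.

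Txnip: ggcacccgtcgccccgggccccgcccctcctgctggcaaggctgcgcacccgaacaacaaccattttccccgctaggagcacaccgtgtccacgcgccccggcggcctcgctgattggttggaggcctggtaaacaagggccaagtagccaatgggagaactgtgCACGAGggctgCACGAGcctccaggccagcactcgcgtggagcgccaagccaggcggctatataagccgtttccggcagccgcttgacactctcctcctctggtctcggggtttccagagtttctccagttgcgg

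The pair, searched on both strands as CACNNG followed by CACNNG after a gap of 5 bases, lay 85 to 69 bases before the start. Such a pair occurred in 1.09% of the 32851 promoters of the same length in the table. CCAAT matched on both strands, 102 to 98 and 137 to 133 bases before the start, and 37.4% of the promoters hold it. TATAA matched 25 to 21 bases before the start and occurs in 24.9% of the promoters. GCGTG, the core of the element bound by the aryl hydrocarbon receptor, matched on both strands, 51 to 47 and 160 to 156 bases before the start, and 32.4% of the promoters hold it. TGACNNNGC, the core of the antioxidant response element, had no match in this window and occurs in 12.4% of the promoters. None of these matches overlap one another, and a match describes letters only.

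The mature transcripts of the 3 genes were also compared for GGACT, the letters most often methylated in mammalian mRNA. In GENCODE M21 the longest protein-coding transcript of Txnip (2827 nt) held 3, that of Hmox1 (1569 nt) held 0 and that of Aldh3a1 (1729 nt) held 3. Per kilobase this was 1.06 for Txnip and 1.74 for Aldh3a1, beside a median of 1.07 over 2279 genes of the table with quartiles of 0.651 and 1.52. By length, 11.4% of these genes had a shorter transcript than Hmox1 and 14.4% a shorter one than Aldh3a1, and the median length was 3440 nt. Whether any of these sites is methylated was not measured here.

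Ythdf2 itself was detected in every library. It had 4.67, 4.99 and 4.23 FPKM in the Setdb1-overexpressing libraries, 6.14, 6.24 and 6.04 in the overexpression controls and 5.79, 6.07 and 6.28 in unmodified knockout libraries, against 8.51, 9.33 and 9.15 in wild type. The transcript fell in knockout against wild-type cells (log2 difference -0.50, SE 0.05, adjusted p = 8.75e-06) and fell again in Setdb1-overexpressing cells against their control (-0.34, SE 0.05, adjusted p = 0.000189). A gene-level value does not show which part of the transcript remained. Setdb1 is not among the genes of the table and was not analysed here. Haemoglobin transcripts averaged 45.1 to 150 FPKM in 4 libraries, knockout 1 and 2 and wild type 2 and 3, and at most 1.28 FPKM in the other 8. Tests on other genes used log2(FPKM + 1), with p-values adjusted over the 2063 genes that reached 1 FPKM in at least 3 libraries; all 3 redox genes did. A difference on this scale understates the change of genes near or below 1 FPKM. Since the authors had marked every gene of the table as significant, the adjusted p-values do not bound the share of false calls.

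Txnip was lower in every knockout group than in wild type, and lowest where Setdb1 was overexpressed. It had 32.8, 29.2 and 34.0 FPKM in the Setdb1-overexpressing libraries, 78.0, 63.5 and 78.6 FPKM in the overexpression controls and 72.4, 57.0 and 53.7 FPKM in unmodified knockout libraries. Wild-type libraries had 152, 139 and 156 FPKM. The wild-type libraries stood above the other 9 and the Setdb1 libraries below the other 9, while the controls and the unmodified knockout libraries overlapped. The means were 32.0 ± 2.48 FPKM in Setdb1-overexpressing cells, 73.4 ± 8.56 FPKM in controls, 61.0 ± 9.97 FPKM in knockout cells and 149 ± 8.93 FPKM in wild type (SD, n = 3 each).

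The knockout mean of Txnip was 0.410 times the wild-type mean, a log2 difference of -1.28 (SE 0.12), which was larger in size than that of 98.9% of the 2063 genes. Setdb1-overexpressing cells were at 0.436 times their control (-1.17, SE 0.12; larger than 99.3% of genes) and at 0.215 times wild type (-2.19, SE 0.12). Overexpression controls were at 1.20 times the unmodified knockout, with overlapping groups (0.27, SE 0.12; larger than 94.2% of genes). The difference had the same sign in knockout against wild-type cells and in Setdb1-overexpressing cells against their control. The Txnip level of Setdb1-overexpressing cells was further from wild type than that of their control. Set against unmodified knockout cells in place of the overexpression control, the difference in Setdb1-overexpressing cells was -0.90. In these bulk libraries, fewer cells that express a gene and less RNA per cell cannot be told apart.

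Hmox1 separated Setdb1-overexpressing cells from the other 9 libraries and differed little among those. Its levels were 50.6, 50.5 and 49.6 FPKM in the Setdb1-overexpressing libraries, 110.1, 108 and 108 FPKM in the overexpression controls and 102, 98.8 and 98.0 FPKM in unmodified knockout libraries. Wild-type libraries had 119, 119 and 118 FPKM. No group overlapped another, and the order was wild type, control, knockout and Setdb1-overexpressing from high to low. The means were 50.3 ± 0.536, 109 ± 1.07 and 99.6 ± 2.08 FPKM in Setdb1-overexpressing, control and knockout cells, against 118 ± 0.334 FPKM in wild type (SD, n = 3 each).

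The Hmox1 mean in Setdb1-overexpressing cells was 0.462 times that of their control (log2 difference -1.10, SE 0.02; larger in size than 99.0% of genes) and 0.424 times wild type (-1.22, SE 0.02). In knockout cells it was 0.840 times wild type (-0.25, SE 0.02), a difference larger than that of 47.4% of genes. Control cells were at 1.09 times the unmodified knockout (0.13, SE 0.02), a difference larger than that of 80.0% of genes. Hmox1 had similar levels in libraries with and without haemoglobin transcripts: wild-type library 1, almost without them, had 119 FPKM beside 119 and 118 in wild-type libraries 2 and 3, and knockout library 3 had 98.0 FPKM beside 102 and 98.8. The groups of Hmox1 were the tightest of the 3 genes, with a highest library at most 1.04 times the lowest in a group, against at most 1.35 for Txnip and 1.16 for Aldh3a1.

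Aldh3a1 was low in both knockout groups without Setdb1 overexpression and at similar levels in Setdb1-overexpressing and wild-type cells. It had 13.9, 14.9 and 15.5 FPKM in the Setdb1-overexpressing libraries, 7.22, 8.41 and 8.03 FPKM in the overexpression controls and 7.81, 7.44 and 8.33 FPKM in unmodified knockout libraries. Wild-type libraries had 14.6, 15.4 and 16.6 FPKM. The libraries formed a lower set of 6 and an upper set of 6 with no value between 8.41 and 13.9 FPKM, and within each set the groups overlapped. The means were 14.8 ± 0.82, 7.89 ± 0.607 and 7.86 ± 0.448 FPKM in Setdb1-overexpressing, control and knockout cells, against 15.5 ± 1.01 FPKM in wild type (SD, n = 3 each).

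Knockout cells had 0.507 times the wild-type mean of Aldh3a1 (log2 difference -0.90, SE 0.06; larger in size than 97.0% of genes). Setdb1-overexpressing cells had 1.87 times the mean of their control (0.83, SE 0.06; larger than 98.3% of genes) and 0.953 times wild type (-0.06, SE 0.06; larger than 5.67% of genes). Control and unmodified knockout cells had almost the same mean, with a ratio of 1.0.

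**Figure D1:**
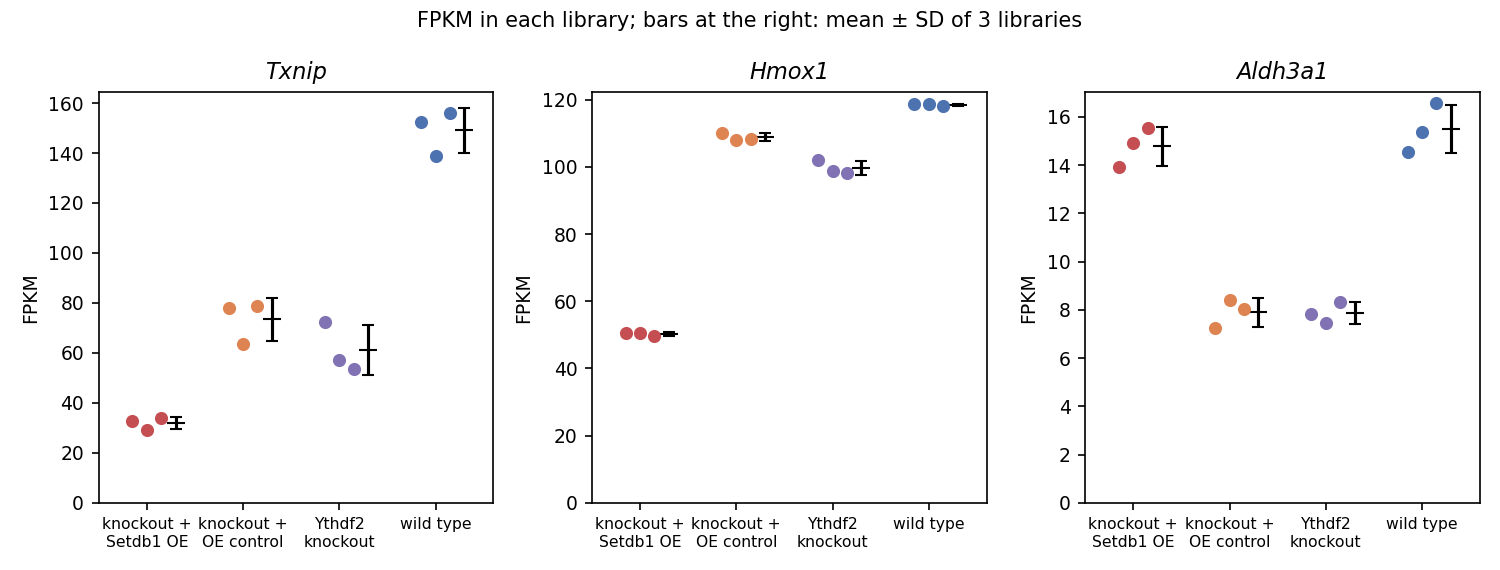
FPKM of Txnip, Hmox1 and Aldh3a1 in each of the 12 libraries (points), with the mean ± SD of the 3 libraries of each group beside them. Txnip is highest in wild type and lowest with Setdb1 overexpression, Hmox1 stands near 50.3 FPKM with Setdb1 overexpression and at 98.0 FPKM or more elsewhere, and Aldh3a1 has an upper set of 6 libraries and a lower set of 6.

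Because FPKM is corrected for length, the levels of the 3 genes can be set against each other. In Setdb1-overexpressing, control and knockout cells Hmox1 was above Txnip, and in wild-type cells Txnip was above Hmox1 in each library; Aldh3a1 was the lowest of the 3 in all 12 libraries. By mean FPKM among the 2281 genes of the table, Txnip ranked 400, 148 and 196 in Setdb1-overexpressing, control and knockout cells and 58 in wild type. Hmox1 ranked 236, 85 and 98 in the same knockout groups and 80 in wild type, and Aldh3a1 ranked 843, 1259 and 1271 in them and 817 in wild type.

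Groups without overlap were frequent in this preselected table, which sets the background for these patterns. In knockout against wild-type cells all 3 genes were lower with no overlap, as were 40.8% of the 2063 genes. In Setdb1-overexpressing cells against their control, Txnip and Hmox1 were lower and Aldh3a1 higher with no overlap; 34.6% of genes were lower and 38.4% higher in this way. Against wild type, Txnip and Hmox1 were lower with no overlap in Setdb1-overexpressing cells, as were 45.5% of genes. In control against unmodified knockout cells Hmox1 was higher with no overlap, as were 13.7% of genes. Since these values chose the 3 genes, nothing is read from the counts. The comparison of knockout with wild-type cells and that of Setdb1-overexpressing cells with their control share no library. Nor do the comparison of control with unmodified knockout cells and that of Setdb1-overexpressing with wild-type cells. Every other pair of comparisons shares a group.

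**Figure D2:**
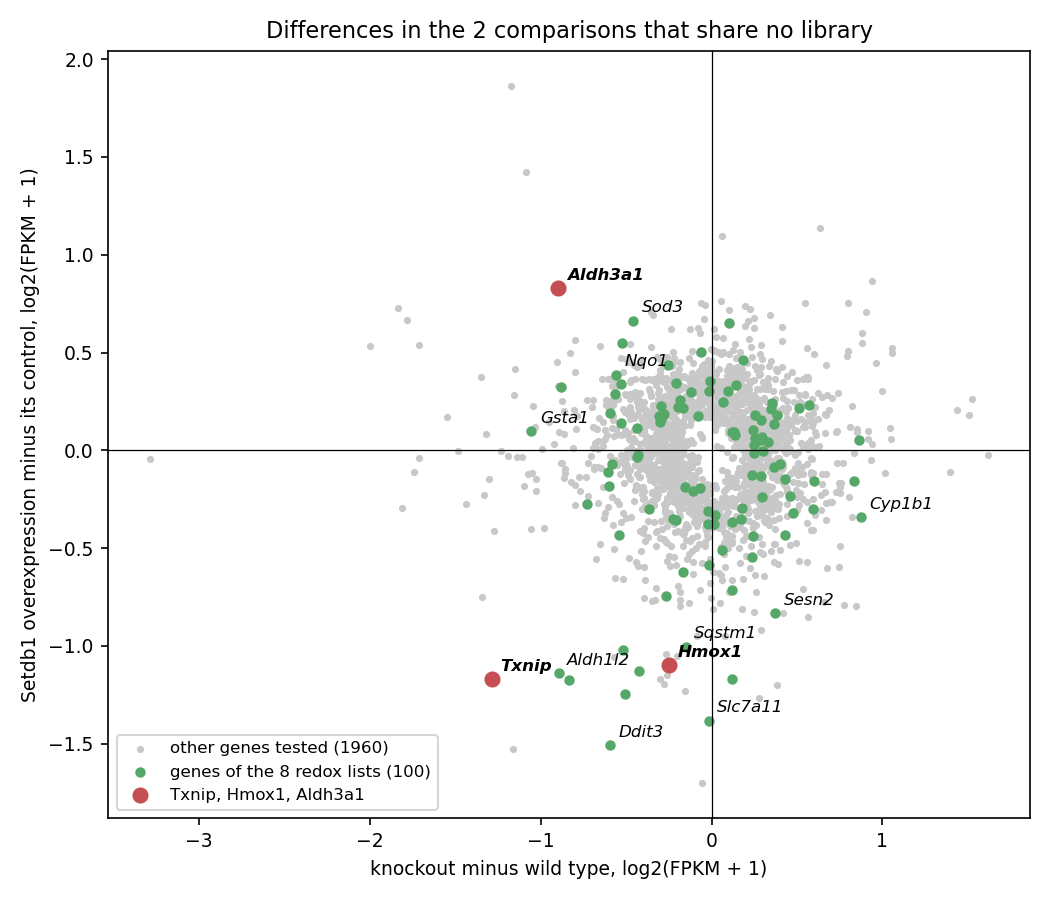
Log2(FPKM + 1) differences of the 2063 genes in knockout minus wild-type cells (horizontal axis) and in Setdb1-overexpressing minus control cells (vertical axis), with 100 other redox genes in green and Txnip, Hmox1 and Aldh3a1 in red. Txnip lies low on both axes (-1.28 and -1.17), Hmox1 low on the vertical axis (-0.25 and -1.10) and Aldh3a1 low on the horizontal and high on the vertical axis (-0.90 and 0.83).

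The surroundings of the 3 genes were described with 8 lists of redox genes, 264 genes in all without the 3, of which 108 are in the table and 100 were tested. The shares of all genes given here are also the background for the counts of each list below. Between knockout and wild-type cells 39 of the 100 rose in the knockout and 38 fell (median -0.01); of all 2063 genes 37.8% rose and 39.5% fell, with the same median. Setdb1-overexpressing cells had 33 genes that rose and 42 that fell against their control (median -0.02), where 36.1% of all genes rose and 31.8% fell (median 0.02). Against wild type, 41 rose and 49 fell in Setdb1-overexpressing cells, where 40.8% of all genes rose and 45.3% fell. In control against unmodified knockout cells 9 rose and 8 fell, where 3.64% of all genes rose and 5.04% fell; the number of redox genes called, 17, was 6 to 11 on leaving out any 1 of the 6 libraries of this comparison and 5 without the libraries that held haemoglobin transcripts.

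Txnip binds thioredoxin, and the thioredoxin, glutaredoxin and peroxiredoxin genes moved in both directions. Of 16 tested, 7 rose and 5 fell in knockout against wild-type cells (median 0.04). Txn1, thioredoxin itself, rose by 0.24 (adjusted p = 1.06e-05), to 280 ± 6.6 FPKM in knockout against 236 ± 2.25 FPKM in wild-type cells, while Txnip was lower. Txnrd1, the cytosolic reductase that keeps thioredoxin reduced, fell to 77.0 ± 2.05 FPKM in knockout cells, against 116 ± 3.6 FPKM in wild type (-0.58, adjusted p = 2.1e-08), and Glrx3, a glutaredoxin, rose by 0.38 (adjusted p = 1.28e-05). With Setdb1 overexpression 7 of the 16 rose and 6 fell against the control (median -0.02). There Txn1 rose by 0.10 (adjusted p = 0.00461), Glrx rose by 0.50 (adjusted p = 6.55e-05), Txnrd3 fell by 0.35 (adjusted p = 0.000237) and Txnrd1 fell by 0.07 (adjusted p = 0.0356). Sesn2, a stress-induced regulator that supports peroxiredoxin recycling, had 17.1 ± 0.929 and 31.1 ± 0.612 FPKM in Setdb1-overexpressing and control cells and fell by 0.83 (adjusted p = 7.53e-08), whereas in knockout against wild-type cells it rose by 0.37 (adjusted p = 1.69e-05). Txn1 was thus higher in both of these comparisons, and Txnip was lower in them. The same held in Setdb1-overexpressing against wild-type cells, where Txn1 rose by 0.35 (adjusted p = 4.23e-07).

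Of 18 alpha-arrestin and MondoA pathway genes beside Txnip, 5 were tested. In knockout against wild-type cells 2 rose and 1 fell; in Setdb1-overexpressing cells against their control 2 fell and the other 3 did not pass the test. Of those 2, Tef (-0.16, adjusted p = 0.0325) did not keep it without each control library in turn, Setdb1 library 2 or Setdb1 library 3 (adjusted p up to 0.0934). Tef, a circadian transcription factor, rose by 0.84 in knockout cells (adjusted p = 4.44e-07), and Hk1, hexokinase 1, fell by 0.44 (adjusted p = 0.00594); the call of Hk1 was lost without the libraries that held haemoglobin transcripts (adjusted p = 0.225). Klf11, a Krüppel-like factor, rose by 0.17 in knockout cells (adjusted p = 0.00129) and fell by 0.35 with Setdb1 overexpression (adjusted p = 1.19e-05). Mlx, the partner of MondoA at the E-box pair printed above, averaged 21.9 ± 0.319, 17.2 ± 0.955 and 17.0 ± 3.46 FPKM in Setdb1-overexpressing, control and knockout cells and 15.2 ± 2.79 FPKM in wild type. Its differences were 0.14 in knockout cells (adjusted p = 0.366) and 0.33 with Setdb1 overexpression (adjusted p = 0.0538), so neither passed the threshold, while that between Setdb1-overexpressing and wild-type cells did (0.51, adjusted p = 0.00563). The MondoA gene, Mlxip, was not analysed here.

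Hmox1 belongs with the genes of haem and iron handling. Of 45 on this list beside Hmox1, only the 7 in the preselected table were tested, and the counts describe these 7. In knockout against wild-type cells 4 of them fell, beside 39.5% of all genes, and the other 3 did not pass the test. The median was -0.44, beside -0.01 for all genes. In Setdb1-overexpressing cells 1 rose and 4 fell against the control, where 36.1% of all genes rose and 31.8% fell (median -0.38, beside 0.02). Against wild type all 7 passed as lower in Setdb1-overexpressing cells, where 45.3% of all genes fell (median -0.45, beside -0.04). Not all of these calls were stable. That of the metalloreductase gene Steap2 against the control (-0.62, adjusted p = 0.0331) was lost without control library 1 or 3 and without each Setdb1 library in turn (adjusted p up to 0.115), and its call against wild type (-0.74, adjusted p = 0.0111) was lost without the libraries that held haemoglobin transcripts (-0.36, adjusted p = 0.0803) and with a term for them (-0.32, adjusted p = 0.103). The call of Fth1 against wild type (-0.48, adjusted p = 0.0217) was lost without wild-type library 3 or without Setdb1 library 1 (adjusted p = 0.0524 and 0.0571). Steap1, of the same family as Steap2, had 6.72 ± 0.369 FPKM in Setdb1-overexpressing cells and 14.7 ± 0.299 FPKM in their control (-1.02, adjusted p = 2.93e-08). Cp, the ferroxidase ceruloplasmin, fell by 0.51 in this comparison (adjusted p = 6.97e-07) and Cpox, an enzyme of haem synthesis, fell by 0.38 (adjusted p = 4.23e-06). The haem exporter gene Abcg2 fell by 0.44 in knockout against wild-type cells (adjusted p = 1.33e-06). Fth1, ferritin heavy chain, fell in knockout cells (-0.60, adjusted p = 0.00764), where its libraries were uneven at 358, 209 and 365 FPKM against 453, 454 and 466 FPKM in wild type; ferritin has processed copies in the genome, so its value is uncertain.

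Hmox1 and Aldh3a1 are both NRF2 targets, and their differences had opposite signs under Setdb1 overexpression; the other NRF2 target and phase II genes were split in the same comparison. In Setdb1-overexpressing cells against their control 9 of 21 rose and 7 fell (median 0.10), beside 36.1% and 31.8% of all genes. Slc7a11, the cystine transporter, fell to 1.27 ± 0.028 FPKM in Setdb1-overexpressing cells, against 4.92 ± 0.097 FPKM in their control (-1.38, adjusted p = 1.76e-10). Sqstm1, the autophagy receptor that also sequesters KEAP1, had 173 ± 4.26 FPKM in Setdb1-overexpressing cells and 349 ± 2.88 FPKM in their control (-1.0, adjusted p = 1.3e-08). On the other side, Gsr, glutathione reductase, rose by 0.43 (adjusted p = 5.07e-07) and Nqo1, a quinone reductase, rose by 0.39 (adjusted p = 4.67e-05). Knockout cells showed 4 of the 21 higher and 12 lower than wild type past the threshold (median -0.17), beside 37.8% and 39.5% of all genes. Among those that fell were Me1, malic enzyme (-0.60, adjusted p = 1.42e-08), Nqo1 (-0.56, adjusted p = 2.18e-06) and Gsta1, a glutathione transferase (-1.05, adjusted p = 1.44e-05), whose reads may be shared with its close copy Gsta2. Slc7a11 differed by -0.02 there (adjusted p = 0.642). Against wild type, 9 of the 21 rose and 11 fell in Setdb1-overexpressing cells, beside 40.8% and 45.3% of all genes.

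Aldh3a1 was set beside 22 tested genes of aldehyde and retinal metabolism. In knockout against wild-type cells 10 of them rose and 9 fell (median 0.04), and in Setdb1-overexpressing cells against their control 10 rose and 8 fell (median 0.08). Aldh1a1, a retinal dehydrogenase, had a course like that of Aldh3a1, with 3.09 ± 0.213, 1.80 ± 0.188 and 1.79 ± 0.182 FPKM in Setdb1-overexpressing, control and knockout cells and 3.02 ± 0.313 FPKM in wild type. It fell in knockout cells (-0.52, adjusted p = 9.26e-05), rose with Setdb1 overexpression (0.55, adjusted p = 9.91e-05) and differed from wild type by 0.03 there (adjusted p = 0.745); its close copy Aldh1a7 moved in the same directions, and reads of the pair may have been split. Dhrs3, a retinal reductase, also fell in knockout cells (-0.88, adjusted p = 1.38e-06) and rose with Setdb1 overexpression (0.32, adjusted p = 0.00225). Unlike Aldh1a1, it remained below wild type in Setdb1-overexpressing cells (-0.62, adjusted p = 1.32e-05). Other genes of the list had the directions of Txnip. Aldh1l2, the mitochondrial formyltetrahydrofolate dehydrogenase, had 8.20 ± 0.267, 19.3 ± 0.541 and 16.6 ± 0.26 FPKM in Setdb1-overexpressing, control and knockout cells and 31.7 ± 0.166 FPKM in wild type. It fell by 0.89 in knockout cells (adjusted p = 1.6e-09) and by 1.14 with Setdb1 overexpression (adjusted p = 2.71e-10). Aldh18a1, which makes the proline precursor, fell in the same comparisons (-0.42 and -1.13, adjusted p = 9.94e-09 and 1.3e-11).

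Of 6 tested genes of the aryl hydrocarbon receptor pathway other than Aldh3a1, 1 rose and 4 fell in knockout against wild-type cells (median -0.31). In Setdb1-overexpressing cells against their control 3 rose and 1 fell (median 0.12). Of all genes 37.8% rose and 39.5% fell in the first comparison, and 36.1% rose and 31.8% fell in the second. Ahr, the receptor gene, had 3.11 ± 0.134, 2.71 ± 0.0637 and 2.70 ± 0.135 FPKM in Setdb1-overexpressing, control and knockout cells and 3.57 ± 0.158 FPKM in wild type. Unlike Aldh3a1, Ahr stayed below wild type in Setdb1-overexpressing cells (-0.15, adjusted p = 0.00531), a call lost with quantile normalization (adjusted p = 0.141). Ahr fell in knockout cells (-0.30, adjusted p = 6.98e-05) and rose with Setdb1 overexpression (0.15, adjusted p = 0.00958), the directions in which Aldh3a1 differed. Cyp1b1, the cytochrome P450 that the receptor induces, moved oppositely: it rose by 0.87 in knockout cells (adjusted p = 3.89e-10), to 74.4 ± 0.476 FPKM against 40.1 ± 0.948 FPKM in wild type, and fell by 0.34 with Setdb1 overexpression (adjusted p = 1.93e-07). Nqo1 and Gsta1 are on this list as well as on that of NRF2 targets.

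Of 15 tested genes for enzymes that make or remove superoxide and peroxide, 9 rose and 5 fell in knockout against wild-type cells (median 0.29). The shares of all genes there were 37.8% and 39.5%. Setdb1 overexpression came with 4 that rose and 6 that fell against the control (median -0.07), beside 36.1% and 31.8% of all genes. Sod3, the extracellular superoxide dismutase, stood above wild type in Setdb1-overexpressing cells (0.15, adjusted p = 0.00432). Otherwise it had the directions of Aldh3a1, falling by 0.46 in knockout cells (adjusted p = 1.89e-06) and rising by 0.66 with Setdb1 overexpression (adjusted p = 2.34e-07). Xdh, xanthine dehydrogenase, did the opposite, with a rise of 0.43 in knockout cells (adjusted p = 1.6e-07) and a drop with Setdb1 overexpression (-0.43, adjusted p = 2.61e-07). Nos2, the inducible nitric oxide synthase, fell in both (-0.84 and -1.17, adjusted p = 4.96e-08 and 8.12e-09), as did the disulfide-forming oxidase gene Ero1l (-0.51 and -1.25, adjusted p = 7.09e-08 and 1.76e-10). Ero1l also rose in control against unmodified knockout cells, by 0.32 (adjusted p = 5.58e-05). Txnip and Hmox1 were higher there by 0.27 and 0.13, with overlapping groups for Txnip.

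Among 17 tested redox regulators and sensors, 2 rose and 10 fell in Setdb1-overexpressing cells against their control (median -0.30), beside 36.1% and 31.8% of all genes. In knockout against wild-type cells 8 rose and 4 fell (median 0.12), beside 37.8% and 39.5% of all genes. Keap1, which targets NRF2 for degradation, rose with Setdb1 overexpression to 11.3 ± 0.837 FPKM, against 7.95 ± 0.26 FPKM in controls (0.46, adjusted p = 1.75e-05), and in knockout against wild-type cells it rose by 0.18 (adjusted p = 0.00587). Ddit3, a stress-induced transcription factor, fell in both comparisons, to 22.8 ± 1.21 FPKM with Setdb1 overexpression against 66.5 ± 1.79 FPKM in controls, and to 69.9 ± 0.868 FPKM in knockout cells against 106 ± 1.5 FPKM in wild type (-1.51 and -0.60, adjusted p = 1.76e-10 and 1.09e-07). Atf3 fell by 1.17 with Setdb1 overexpression (adjusted p = 6.65e-08) and Hif1a fell by 0.58 (adjusted p = 2.04e-09), while in knockout cells they differed from wild type by 0.12 (adjusted p = 0.0802) and -0.01 (adjusted p = 0.477). Hmox1 likewise had a larger difference under Setdb1 overexpression than in knockout cells. Atf4 fell with Setdb1 overexpression (-0.75, adjusted p = 0.043), but its libraries were uneven at 65.2, 140.4 and 76.4 FPKM, and the call was lost without Setdb1 library 1, without Setdb1 library 3 and without each of the control libraries in turn (adjusted p up to 0.157). Nfe2l2, Bach1 and Arnt were not analysed here.

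**Figure D3:**
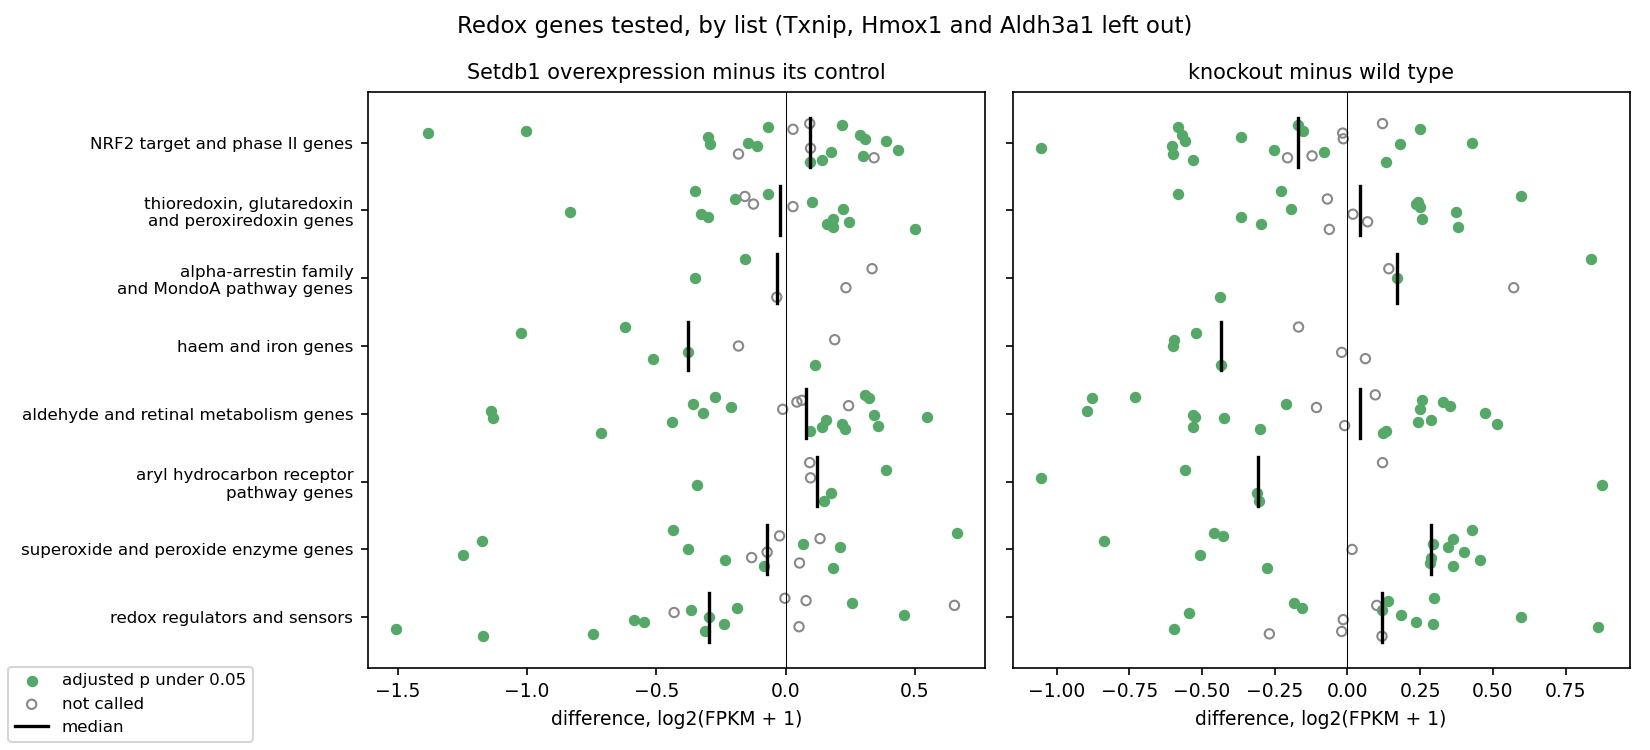
Log2(FPKM + 1) differences of the 100 tested redox genes in 8 lists, in Setdb1-overexpressing minus control cells (left) and knockout minus wild-type cells (right); filled points passed an adjusted p of 0.05 and bars mark the list medians. Each list spreads to both sides of 0 in at least 1 panel, and the haem and iron list has medians of -0.38 and -0.44.

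The 100 redox genes were sorted by their calls in 2 comparisons without a shared library. These were knockout against wild-type cells and Setdb1-overexpressing cells against their control. The genes showed each of the patterns described for Txnip and Aldh3a1. The direction of Aldh3a1, lower in knockout cells and higher with Setdb1 overexpression, was shared by 18 of them, which is 47.4% of the 38 that fell in knockout cells and 54.5% of the 33 that rose with Setdb1 overexpression. Over all 2063 genes this pattern held for 275, or 33.7% and 37.0% of the corresponding sets. These 18 were Nqo1, Gsr, G6pdx, Akr1b3, Ugdh, Ptgr1, Sesn3, Msrb1, Abcg2, Aldh1a1, Aldh1a7, Akr1b10, Dhrs3, Ahr, Arnt2, Sod3, Aifm2 and Nfe2l3. The direction of Txnip and Hmox1, lower in both, was shared by 14 redox genes, which is 36.8% of those that fell in knockout cells and 33.3% of the 42 that fell with Setdb1 overexpression, beside 31.5% and 39.2% over all genes. These 14 were Txnrd1, Sqstm1, Me1, Prdx1, Txnrd3, Steap1, Aldh1l2, Aldh6a1, Aldh18a1, Rdh10, Nos2, Ero1l, Mafk and Ddit3. The difference between redox genes and all genes in these shares was not tested.

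The 3 genes had different neighbours when all 2063 genes were ranked by Pearson r with each over the 12 libraries on the log2 scale. The libraries fall into 4 groups, so such an r mainly compares group levels and is given without a test. Between the genes themselves r was 0.872 for Txnip and Hmox1, 0.081 for Txnip and Aldh3a1 and -0.389 for Hmox1 and Aldh3a1.

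Nearest to Txnip were Mcm6, a subunit of the replicative helicase (r = 0.986), Lonp1, a mitochondrial protease (0.984), Arrb2, beta-arrestin 2 (0.982), Ptgs1, a cyclooxygenase (0.982), and Sord, sorbitol dehydrogenase (0.980). The farthest were Trim28, a co-repressor that recruits SETDB1 (-0.990), Thbs1, thrombospondin 1 (-0.987), and Cfl1, cofilin 1 (-0.986). Trim28 had 64.4 ± 1.0 FPKM in Setdb1-overexpressing cells and 54.7 ± 0.132 FPKM in their control, and 57.1 ± 1.83 FPKM in knockout cells against 47.0 ± 0.961 FPKM in wild type. Of the redox genes, Aldh1l2 was nearest to Txnip (0.976). The log2 range of Txnip across groups was larger than that of its 5 nearest genes.

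Nearest to Hmox1 were Ndrg1, a stress-responsive gene (r = 0.999), Cryzl1, a quinone oxidoreductase-like gene (0.996), Mthfd2, a mitochondrial folate enzyme (0.996), Dhrs9, a retinol dehydrogenase (0.994), and Yars, tyrosyl-tRNA synthetase (0.994). Ndrg1 had 71.1 ± 0.864, 159 ± 1.04 and 144 ± 1.08 FPKM in Setdb1-overexpressing, control and knockout cells and 173 ± 1.7 FPKM in wild type, the order of Hmox1. The farthest were Wdr6 (-0.993), Rbm8a, a core protein of the exon junction complex (-0.992), and Smarca4, the BRG1 chromatin remodeller (-0.989), and the nearest redox gene was Sqstm1 (0.993).

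Nearest to Aldh3a1 were Nelfe, a subunit of the negative elongation factor (r = 0.982), Scd1, a stearoyl-CoA desaturase (0.981), Cd24a, a surface glycoprotein (0.980), Anln, anillin (0.980), and Hnrnpa1, a splicing regulator (0.976). The farthest were Xdh (-0.986), Timp2, a metalloprotease inhibitor (-0.984), and Arsa, arylsulfatase A (-0.978), and the nearest redox gene was Nqo1 (0.966). Scd1 had 81.1 ± 0.655 FPKM in Setdb1-overexpressing cells, 65.1 ± 0.731 in controls and 66.4 ± 0.971 in knockout cells, against 85.7 ± 0.959 FPKM in wild type.

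**Figure D4:**
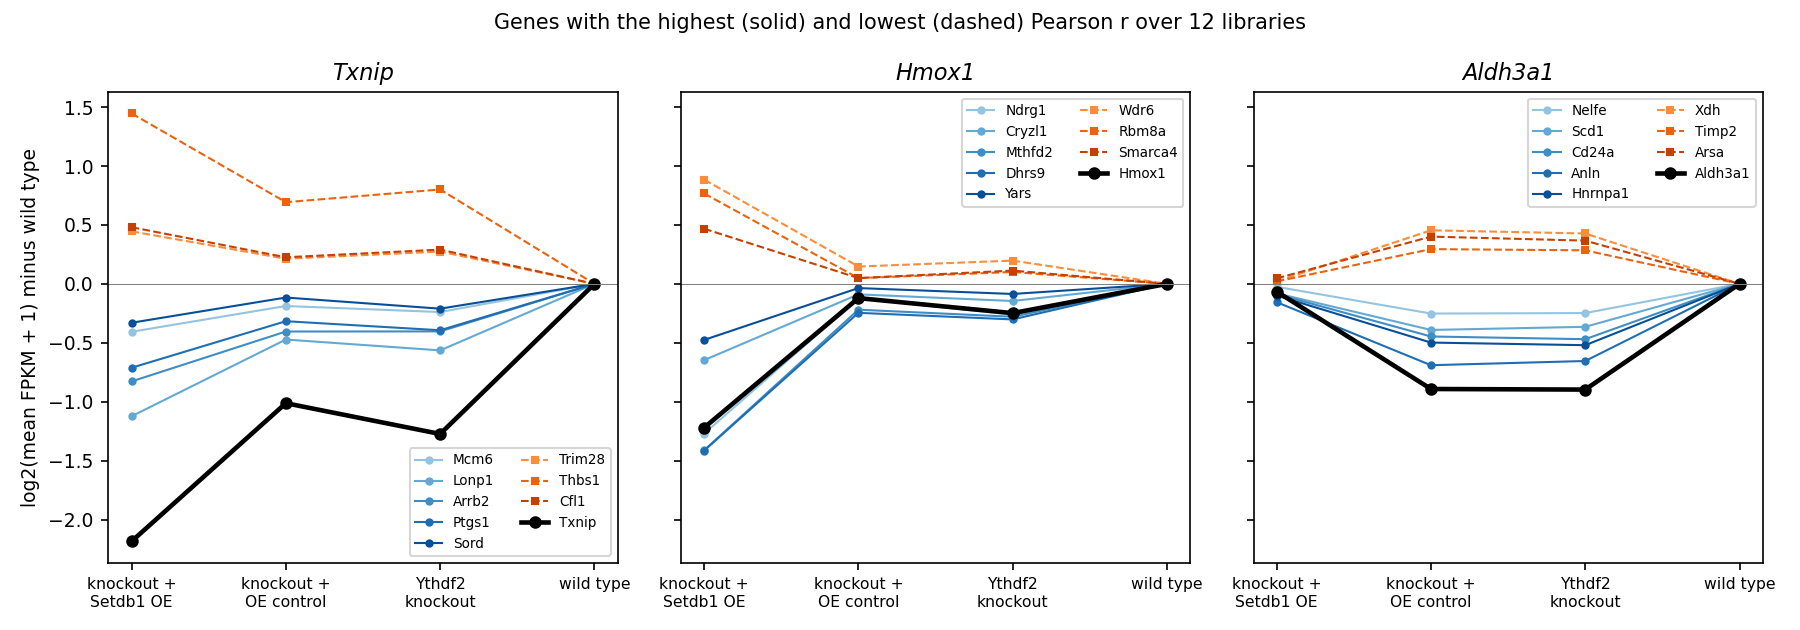
Group means of Txnip, Hmox1 and Aldh3a1 (black) and of the 5 genes of highest (blue, solid) and 3 of lowest (orange, dashed) Pearson r with each, as log2(mean FPKM + 1) minus the wild-type value. Txnip and its 5 nearest genes step down from wild type to knockout and again to Setdb1 overexpression, while its 3 farthest genes step up. The Hmox1 genes differ mostly under Setdb1 overexpression, and the Aldh3a1 genes lie near the wild-type value there.

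Markers of other cell types were followed because some of them moved with these groups. Of 15 epithelial markers 7 are in the table. Their summed levels were 335 to 348, 384 to 401 and 349 to 358 FPKM in Setdb1-overexpressing, control and knockout libraries. In wild type they were 842 to 876 FPKM. Like Txnip, these sums were highest in wild type. Their medians in knockout and Setdb1-overexpressing cells were 350 and 341 FPKM, while Txnip averaged 61.0 and 32.0 FPKM there. The sums were not high in Setdb1-overexpressing cells, where Aldh3a1 stood near its wild-type level. A part of these markers in the differences of either gene was not tested. Of 23 spermatogonial markers 5 are in the table (Cd9, Itga6, Bcl6b, Etv5 and Foxo1) and the other 18 were not analysed here. The summed level of the 5 was 71.3 to 78.6, 82.9 to 86.4 and 75.2 to 77.7 FPKM in the 3 knockout groups, in the same order. In wild type it was 118 to 119 FPKM. Foxo1 adds little to this sum and went the other way. It averaged 5.93 FPKM in knockout and 4.65 FPKM in wild-type cells (0.29, adjusted p = 1.2e-05). The sum thus does not give the direction of each marker. Fibroblast markers (6 of 17 in the table) summed to 520 to 526, 502 to 523 and 487 to 505 FPKM in the knockout groups and 350.1 to 371 FPKM in wild type, and Sertoli and Leydig markers (6 of 17) to 98.7 to 102, 97.2 to 97.4 and 102 to 118 FPKM, against 182 to 185 FPKM in wild type. Macrophage markers (2 of 16) summed to 94.6 to 99.4, 111 to 118 and 105 to 112 FPKM, against 88.9 to 97.1 FPKM in wild type, almost all of it Cd68, and Ptprc was under 0.1 FPKM in every Setdb1-overexpressing and control library.

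Blood markers differed between libraries of the same group. Erythroid markers (6 of 13) summed to at most 0.657 FPKM in Setdb1-overexpressing and 0.762 FPKM in control libraries, but to 0.282 to 602 FPKM in knockout and 5.28 to 515 FPKM in wild-type libraries. Neutrophil and platelet markers (5 of 15) summed to at most 1.57 and 2.03 FPKM in Setdb1-overexpressing and control libraries, to 2.33 to 39.5 FPKM in knockout and to 3.11 to 45.5 FPKM in wild-type libraries. With knockout library 3 and wild-type library 1 alone, which held little of either, the differences in knockout cells were -1.49 for Txnip, -0.27 for Hmox1 and -0.74 for Aldh3a1. The 6 libraries behind the comparison of Setdb1-overexpressing cells with their control held at most 0.147 FPKM of haemoglobin transcripts on average.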

How the data were processed

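Total RNA of 12 libraries was sequenced, and the deposited table gives FPKM for each library with a p-value and a q-value that the authors computed for a comparison the file does not name. Per the submitters' processing notes, cutadapt, HISAT2, StringTie, edgeR and DESeq2 were used, without versions or roles; the sources used here do not give genome build or annotation. Depth is unknown, as read numbers per library are not given, and intervals from counts are therefore left out. The authors' p-values were not used. The labels do not say whether the 3 libraries of a group came from separate cultures, so p-values measure only the spread between these libraries, which may be technical.

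Gene IDs were matched to GENCODE M21 symbols (2281 of 2281) and the promoter was taken from RefSeq. Of 2281 genes, 2063 with at least 1 FPKM in at least 3 libraries were tested on log2(FPKM + 1) with limma 3.58.1 (R 4.3.3; trend, all 12 libraries in 1 fit, group as the only term), with Benjamini-Hochberg adjustment over the 2063 and a threshold of 0.05; 218 were left out. Tests are two-sided. The script was tested on simulated data. The 3 genes and the lists (8 redox, 7 cell type) were chosen with earlier results of these data known. Named genes are the 3, up to 4 genes of largest called difference per redox list and comparison, the 5 of highest and 3 of lowest Pearson r with each of the 3, and chosen regulators; a part of them is given in the text. Gene sharing among near-identical copies and between strands is unresolved, since strandedness is not stated. Alternatives were another pseudocount (0.1), no filter, other scalings, a replicate block, only the libraries compared and leaving out each library; those on haemoglobin transcripts (libraries with a mean above 10 FPKM over 4 haemoglobin genes) and the one that replaces the control with unmodified knockout cells were chosen after seeing the data.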

Additional observations from a re-analysis of the deposited data

How the results depend on the processing

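The differences of Txnip, Hmox1 and Aldh3a1 kept their direction in every alternative run, apart from those of Aldh3a1 that were near 0. Of 285 alternative values of the main results 256 stayed close and 29 moved, and of 1485 for named genes 150 lost their call, in 28 of 104 results, and 0 reversed. Leaving out 1 library at a time gave these ranges in knockout against wild-type cells: -1.41 to -1.20 for Txnip, -0.27 to -0.24 for Hmox1 and -0.94 to -0.85 for Aldh3a1. In Setdb1-overexpressing cells against their control they were -1.27 to -1.11, -1.10 to -1.09 and 0.77 to 0.87. Without the libraries that held haemoglobin transcripts, which leaves 1 knockout and 1 wild-type library, knockout differences were -1.49 for Txnip, -0.27 for Hmox1 and -0.74 for Aldh3a1, and Aldh3a1 in Setdb1-overexpressing against wild-type cells was 0.019. With unmodified knockout cells in place of the control, Setdb1 differences were -0.90 for Txnip and -0.97 for Hmox1. For Hmox1, quantile normalization gave -0.21 in knockout cells, -1.07 in Setdb1-overexpressing cells against their control and -1.14 against wild type, where a pseudocount of 0.1 gave -1.24 and median-of-ratios scaling -1.20. The control against unmodified knockout cells was the least stable comparison: its 179 calls over all genes became 106 with only the libraries compared, 93 to 128 on leaving out any 1 of its 6 libraries, 41 without the libraries that held haemoglobin transcripts and 66 with a term for them. Its 17 redox calls became 8, 6 to 11, 5 and 6 in the same settings and 10 with a replicate block. The cause of these shifts was not tested. Same-numbered libraries did not deviate together in the comparisons other than knockout against wild type (correlations of -0.042 to 0.092). In knockout and wild-type cells the correlations were -0.70, 0.41 and -0.50. The positive one is that of number 2, where both libraries held haemoglobin transcripts, while only 1 library did for numbers 1 and 3. Whether the numbers pair these libraries therefore cannot be told from this check. In this balanced design a replicate block cannot change a difference, only its error. Depth is unknown, so low values cannot be bounded.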

Other observations

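Some redox genes varied within a group in a way that Txnip, Hmox1 and Aldh3a1 did not; they were chosen after their values were seen. Of 80 other redox genes with a mean of at least 5 FPKM, 8 (10%) had a highest library at least 1.5 times the lowest in some group, beside 98 of 1556 genes (6.30%) in all; the highest such ratio of the 3 genes was 1.35, for Txnip in knockout cells. Nfe2l1, a relative of NRF2, had 93.7, 91.9 and 28.1 FPKM in Setdb1-overexpressing libraries and 41.1, 39.7 and 37.5 FPKM in their controls. Klf10 had 10.7, 21.7 and 21.7 FPKM in Setdb1-overexpressing libraries, 15.4, 30.7 and 29.3 FPKM in knockout libraries and 15.5, 16 and 16.2 FPKM in wild type. Atf4 had 65.2, 140.4 and 76.4 FPKM in Setdb1-overexpressing libraries and 164, 308 and 159 FPKM in wild type. Ugt1a6a had 16, 7.78 and 8.52 FPKM in Setdb1-overexpressing libraries and 6.90, 7.57 and 16.3 FPKM in their controls. The other 4 were Cbr1, Fth1, Mlx and Maff, each uneven in knockout libraries.

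Of the genes the authors' table assigns to oxidation-reduction, 256 were tested beside Hmox1 and Aldh3a1, which also carry the term. In knockout against wild-type cells 116 rose (45.3%, beside 37.8% of all 2063 genes) and 84 fell (32.8%, beside 39.5%). In Setdb1-overexpressing cells against their control 78 rose (30.5%, beside 36.1%) and 105 fell (41.0%, beside 31.8%). Against wild type 117 rose (45.7%, beside 40.8%) and 104 fell (40.6%, beside 45.3%) in Setdb1-overexpressing cells. In control against unmodified knockout cells 24 rose (9.38%, beside 3.64%) and 12 fell (4.69%, beside 5.04%). The differences from all genes were not tested.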
